A study of Mus musculus with 2 samples.

Results

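The immunoglobulin kappa variable (Igkv) segments were taken as the genes whose symbol begins with Igkv and a digit, which gave 63 of the 12860 genes with counts. Total RNA of unsorted whole bone marrow came from 1 mouse with the Srsf2 P95H change on 1 allele, a female of 14 weeks, and from 1 mouse with WT Srsf2, a male of 12 weeks. Both were on a C57BL/6 background, both carried R26CreERT2, a tamoxifen-dependent Cre recombinase at the Rosa26 locus, and both were treated with tamoxifen in vivo, so the comparison is of the P95H and WT alleles after the same treatment. Each genotype had 1 library, so an effect of genotype and one of sex, age or the single animal cannot be told apart, and how far 2 mice of 1 genotype would differ is unknown. Counts over all listed genes summed to 42366695 in P95H marrow and 44733445 in WT marrow. Srsf2 itself (Entrez 20382) had 9162 counts in P95H marrow and 10767 in WT marrow, which checks no label, because the change edits the gene in place and a total does not tell the alleles apart.

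An antibody light chain gene is made in developing B cells, when the recombinase of Rag1 and Rag2 joins 1 Igkv segment to 1 of the joining segments (Igkj), after which the transcript is spliced to the constant exon Igkc. Each B cell usually carries a single productive kappa join, and plasma cells, the antibody-secreting descendants of B cells, transcribe theirs at far higher levels than other B lineage cells do. The first number in a segment's name is its V family, a group of similar sequence, and the second its place in the locus, counted from the side of the joining segments. In total RNA the Igkv reads therefore report which segments the B lineage cells of the marrow express, weighted by how strongly each cell transcribes its light chain. In unsorted marrow, fewer cells of a type and less RNA per cell cannot be told apart.

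The sum of the Igkv counts was about level between the libraries, whereas single segments differed several-fold. The P95H library had 7608 Igkv counts, 0.0180% of its listed counts (exact binomial 95% interval 0.0176 to 0.0184), and WT marrow 8951, 0.0200% (0.0196 to 0.0204). In the authors' CPM (counts scaled to an effective library size) these were 192 and 187, a ratio P95H over WT of 1.03 (95% counting interval 0.994 to 1.06). With plain library totals the ratio was 0.897 (0.870 to 0.925), so the side of 1 on which the sum lies rests on the scaling. Without the 1 segment with the most counts, Igkv6-15, it was 0.967. Intervals are exact unless stated, cover counting error only and say nothing of the spread between mice.

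Of the 63 segments, 10 were past 2-fold, 4 with more in P95H marrow and 6 with less, measured as a difference of 1 or more on the log2(CPM + 1) scale, a scale that compresses differences at low levels such as these. That is 6.35% and 9.52% of the segments, where 1.76% and 2.1% of all 12860 genes passed the same sizes in the same directions. Every listed gene had to reach 1 CPM in a library, and 5 of the 6 lower segments did so in WT marrow alone. Among the 46 segments at 1 CPM or more in both libraries, 1 was lower and 3 were higher by this size. The share of lower segments therefore owes much to the listing. The 4 higher segments were Igkv6-15, Igkv4-91, Igkv9-120 and Igkv4-80, and the 6 lower were Igkv1-122, Igkv12-98, Igkv8-21, Igkv4-86, Igkv4-57-1 and Igkv4-72. Their germline ends are printed first, since the last bases of a V segment encode the start of CDR3, the loop of the light chain at the V to J join that contacts antigen. Each line holds the last 60 bases of the V exon on chromosome 6, a coding exon, from GENCODE M21 on GRCm38, read 5′ to 3′. Capitals mark the bases after the codon of the conserved cysteine that precedes CDR3, found as the last TGT or TGC that follows a tyrosine or phenylalanine codon (TAT, TAC, TTT or TTC). The first 4 lines are the higher segments.
Igkv6-15 (chr6:70406469-70406528, minus strand): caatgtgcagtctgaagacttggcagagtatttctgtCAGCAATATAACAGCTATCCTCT
Igkv4-91 (chr6:68768555-68768614, minus strand): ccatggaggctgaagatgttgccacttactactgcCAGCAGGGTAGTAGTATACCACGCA
Igkv9-120 (chr6:68050397-68050456, plus strand): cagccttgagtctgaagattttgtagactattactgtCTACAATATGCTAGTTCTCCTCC
Igkv4-80 (chr6:69016558-69016617, minus strand): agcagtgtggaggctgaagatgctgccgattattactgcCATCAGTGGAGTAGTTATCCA
Igkv1-122 (chr6:68017429-68017488, plus strand): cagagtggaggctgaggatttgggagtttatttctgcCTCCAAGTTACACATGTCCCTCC
Igkv12-98 (chr6:68571176-68571235, plus strand): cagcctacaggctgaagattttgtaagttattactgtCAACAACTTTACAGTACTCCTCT
Igkv8-21 (chr6:70314895-70314954, minus strand): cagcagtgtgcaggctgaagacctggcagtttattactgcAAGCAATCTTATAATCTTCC
Igkv4-86 (chr6:68910411-68910470, minus strand): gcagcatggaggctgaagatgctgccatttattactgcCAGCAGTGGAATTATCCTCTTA
Igkv4-57-1 (chr6:69544359-69544418, minus strand): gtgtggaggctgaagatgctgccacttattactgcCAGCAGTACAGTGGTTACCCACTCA
Igkv4-72 (chr6:69226854-69226913, minus strand): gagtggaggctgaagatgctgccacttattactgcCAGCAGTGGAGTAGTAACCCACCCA
The stretch in capitals ran from 20 bases in Igkv8-21 to 25 in Igkv4-91, Igkv4-57-1 and Igkv4-72. Over the 62 segments in which the codon was found there were 57 distinct stretches, so most segments differ in these germline bases. The stretch of Igkv4-72 was the same as those of Igkv4-59 and Igkv4-68, so it does not tell these segments apart.

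Igkv6-15 (Entrez 108022) was the segment with the most counts in P95H marrow. It had 662 counts there and 289 in WT marrow, 16.7 and 6.04 CPM, a CPM ratio of 2.76 (2.40 to 3.18). As a share of all Igkv counts of its library it held 3.23% in WT marrow (2.87 to 3.62) and 8.70% in P95H marrow (8.08 to 9.36). Shares are within a library and do not depend on the scaling. Per length of the annotated transcript, which for these segments was between 338 and 501 bases, its level was 48.1 CPM per kb in P95H marrow, the highest of the 63, against 17.4 in WT marrow. By counts it ranked 1 in P95H marrow and 7 in WT marrow.

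The other 3 higher segments lay lower in WT marrow. Igkv4-91 (Entrez 434033) had 264 counts in P95H marrow against 99 in WT marrow, a CPM ratio of 3.22 (2.54 to 4.09). Igkv9-120 (Entrez 434025) had 284 against 111, a CPM ratio of 3.09 (2.47 to 3.88). These 2 segments ranked 7 and 6 by counts in P95H marrow and 34 and 30 in WT marrow. Igkv4-80 (Entrez 545848) was near the bottom of WT marrow with 12 counts and had 86 in P95H marrow, a CPM ratio of 8.64 (4.70 to 17.4). Together these 4 segments, picked by their differences, took 17.0% of Igkv counts in P95H marrow and 5.71% in WT marrow.

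Among the lower segments, Igkv1-122 and Igkv12-98 stood almost empty in P95H marrow. Igkv1-122 (Entrez 434024) had 4 counts there and 135 in WT marrow, a CPM ratio of 0.0357 (0.00960 to 0.0936). Igkv12-98 (Entrez 435900) had 3 counts against 68, a CPM ratio of 0.0532 (0.0107 to 0.162). The 3 counts of Igkv12-98 equal the floor of 3 counts used for a value near 0, so its level in P95H marrow cannot be told from that floor. Igkv8-21 (Entrez 620400) had 19 counts against 128, a CPM ratio of 0.179 (0.104 to 0.291), and Igkv4-57-1 (Entrez 384514) 33 against 158, a CPM ratio of 0.252 (0.168 to 0.368). Igkv4-86 (Entrez 243451) had 23 counts against 106, a CPM ratio of 0.262 (0.159 to 0.414), and Igkv4-72 (Entrez 385109) 59 against 216, a CPM ratio of 0.329 (0.243 to 0.441). As a group these 6 segments, also picked by their differences, held 1.85% of Igkv counts in P95H marrow and 9.06% in WT marrow. Pooled shares of segments picked this way had to differ in this direction.

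**Figure D1:**
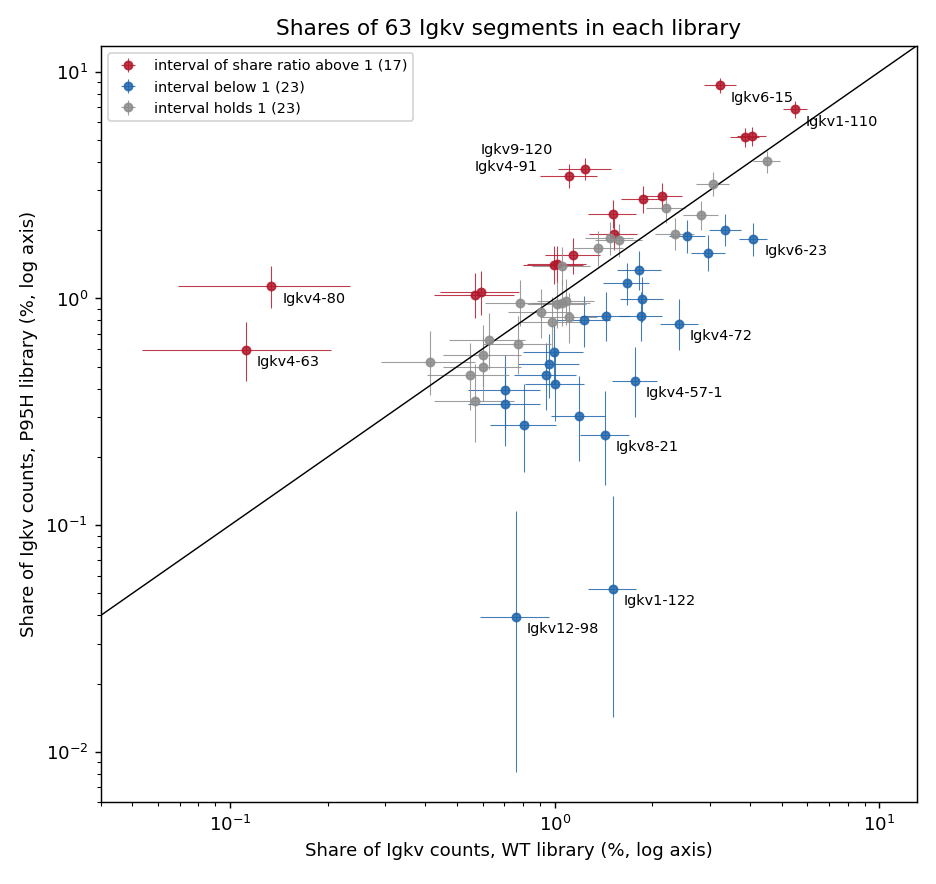
Share of all Igkv counts taken by each of the 63 segments in WT marrow (x axis, %, log scale) and in P95H marrow (y axis, %, log scale), 1 library each, with exact 95% counting intervals. Segments on the line have equal shares. Igkv6-15 lies at 8.70% against 3.23%, and Igkv1-122 and Igkv12-98 lie far below the line.

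Just inside the limit of 2-fold on the higher side were Igkv9-120 and Igkv4-91, with differences of 1.30 and 1.32, and just outside Igkv4-63 at 0.82 and Igkv6-17 at 0.54. Igkv4-63 had 45 counts in P95H marrow against 10 in WT marrow, a CPM ratio of 5.43 (2.70 to 12.1), which the log2(CPM + 1) scale compressed below the limit. On the lower side Igkv4-86 at -1.02 and Igkv4-72 at -1.15 lay just inside, and Igkv6-23 at -0.94 and Igkv6-25 at -0.77 just outside. With plain totals Igkv6-23 was at -1.10, past the limit. Igkv6-23 (Entrez 637227) had 139 counts against 366 and ranked 3 in WT marrow and 19 in P95H marrow. By the counting interval of the CPM ratio lying wholly beyond 2-fold, 5 segments were higher and 6 lower, where 1.72% and 2.31% of all genes passed those rules.

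Every listed gene reached 1 CPM in one library or both, and this bears on how the differences read. Of the 63 segments, 46 reached that level in both libraries, 14 in WT marrow alone and 3 in P95H marrow alone. A segment listed through 1 library had to be lower in the other, which holds for 5 of the 6 lower segments, all but Igkv4-72, and for Igkv4-80 among the 4 higher. Over all 63 segments the difference lay above 0 for 26 and below 0 for 37, with a median of -0.10 beside -0.00349 over all genes. The middle of the segments spread more widely, from -0.49 to 0.31 between the quartiles beside -0.23 to 0.22 over all genes. Among the 46 segments at 1 CPM or more in both libraries, 23 lay above 0 and 23 below. RefSeq of GRCm38.p6 holds 162 Igkv genes, 102 V segments and 60 V pseudogenes, and the 63 listed segments were all among the 102, with 0 of the 60 pseudogenes. The other segments were not analysed here.

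Counts were concentrated on somewhat fewer segments in P95H marrow. Its 10 segments with the most counts held 45.9% of Igkv counts (44.7 to 47.0), and the 10 of WT marrow 37.4% (36.4 to 38.4). The effective number of segments, the exponential of the Shannon entropy of the shares, was 42.9 in P95H marrow and 50.8 in WT marrow, and 42.8 and 51.1 with counts divided by transcript length. By the inverse Simpson index, which weights the large segments more, it was 31.3 and 42.2. Part of this difference comes with the listing, since 14 segments were listed through WT marrow alone and 3 through P95H marrow alone. Over the 46 segments at 1 CPM or more in both libraries, a set chosen after the data were seen, the effective numbers were 35.4 and 38.8, and the leading 10 held 49.3% (48.2 to 50.5) and 43.6% (42.5 to 44.7). Without Igkv6-15 the effective numbers over the other 62 were 44.4 and 49.9.

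**Figure D2:**
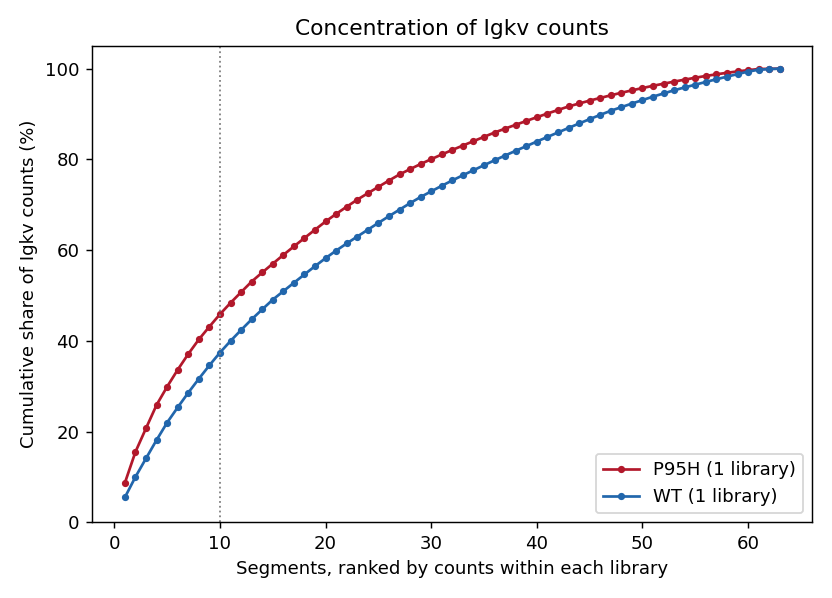
Cumulative share of Igkv counts (y axis, %) over the 63 segments ranked by counts within each library (x axis), 1 library per line. At 10 segments, the dotted line, P95H marrow stood at 45.9% and WT marrow at 37.4%.

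The leading segments overlapped in part. The 2 lists of 10 shared 6 segments, so that 60.0% of each list was in the other. The 6 were Igkv6-15, Igkv1-110, Igkv10-96, Igkv1-117, Igkv15-103 and Igkv8-30. Igkv1-110 (Entrez 381777) had the most counts of WT marrow, 492, and was second in P95H marrow with 519, a share of 5.50% (5.03 to 5.99) against 6.82% (6.27 to 7.41). Igkv10-96 had 396 counts in P95H marrow and 362 in WT marrow, and Igkv1-117 391 and 344. Igkv15-103 had 306 and 403, a CPM ratio of 0.916 (0.787 to 1.07) whose interval held 1. Igkv8-30 had 244 and 275, a CPM ratio of 1.07 (0.897 to 1.28) whose difference of 0.08 turned to -0.08 with plain totals. Of the 4 segments in the P95H list alone, Igkv3-12 had 215 counts against 192 in WT marrow and Igkv8-28 208 against 167, beside Igkv4-91 and Igkv9-120 above. The 4 in the WT list alone were Igkv6-23, Igkv3-2, Igkv8-24 and Igkv1-135. Igkv3-2 had 153 counts in P95H marrow against 300, Igkv8-24 121 against 265 and Igkv1-135 177 against 252. Across the 63 segments, which share 2 libraries and a counting step, Spearman's rho between the counts of the libraries was 0.67 and Pearson's r of log2 counts 0.53, given as a description.

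Compared by share, 17 segments had an interval of the share ratio (P95H over WT) wholly above 1, 23 had one wholly below 1, and for 23 it held 1. By the CPM ratio, 19 segments had an interval wholly above 1 and 23 one wholly below 1. Over all 12860 genes, 34.1% and 32.8% had such CPM intervals, so passing this rule was common among all genes. The sum of the share differences in 1 direction was 22.6% of Igkv counts, which is the part of the P95H counts that would have to move to other segments to give the WT shares. Summed by V family, the same measure was 7.56%. A sum over any groups of segments can only lower it, so the smaller value says nothing particular to V families.

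The 63 segments belong to 16 V families, and 3 of these had a share ratio interval wholly above 1, 6 one wholly below 1, and 7 one that held 1. Family 9, with Igkv9-120 and Igkv9-124, had 348 counts in P95H marrow and 240 in WT marrow, 4.57% (4.12 to 5.07) against 2.68% (2.36 to 3.04). Its direction rests on Igkv9-120, with 284 counts against 111, since Igkv9-124 had 64 against 129. Family 6 had 1225 against 1192, 16.1% (15.3 to 16.9) against 13.3% (12.6 to 14.0). Without Igkv6-15, the other 6 segments of family 6 had 563 against 903 counts, a share of 7.40% against 10.1%, so the direction of this family rests on 1 segment. Family 13, listed through Igkv13-85 alone, had 79 against 51.

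Of the 6 families with lower shares, family 8 was the largest. It had 825 counts in P95H marrow and 1145 in WT marrow over 7 segments, 10.8% (10.2 to 11.6) against 12.8% (12.1 to 13.5). Within it Igkv8-21, listed through WT marrow alone, had 19 counts against 128. Family 12 had 387 against 570 over 5 segments. Among these Igkv12-98, also listed through WT marrow alone, had 3 against 68. Families 8 and 12 were not recomputed without these segments, so how far their direction rests on them is not given. Family 2 had 168 against 244, family 14 had 162 against 243, and family 17 had 92 against 178, each over 2 segments that all lay below 0. Family 16, with Igkv16-104 alone, had 44 against 89.

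The remaining 7 families, whose intervals held 1, included families 1 and 4, which with family 6 were the largest. Family 1, with 6 segments, had 1203 counts in P95H marrow against 1351 in WT marrow, which is a share of 15.8% against 15.1% (share ratio 1.05, 0.969 to 1.13). Of these counts Igkv1-122 had 4 against 135, and the family was not recomputed without it. Family 4, with 15 segments, had 1093 against 1388. Family 4 held segments of both directions, with 2 at least 2-fold higher and 3 at least 2-fold lower, and its total had a share ratio of 0.926 (0.855 to 1.00). Families 3, 5 and 10, like family 1 and unlike family 4, had fewer counts in P95H marrow but a share ratio above 1. Family 3 had 733 counts against 812 (share ratio 1.06, 0.960 to 1.18), and family 5 had 361 against 387 (1.10, 0.948 to 1.27). Family 10 had 435 against 448, a share ratio of 1.14 (0.999 to 1.31) and a CPM ratio of 1.17 (1.02 to 1.34), whose interval lay above 1. That CPM ratio depends on the scaling and was not recomputed with plain totals. Single segments made up family 15, with Igkv15-103 at 306 against 403, and family 19, with Igkv19-93 at 147 against 210.

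**Figure D3:**
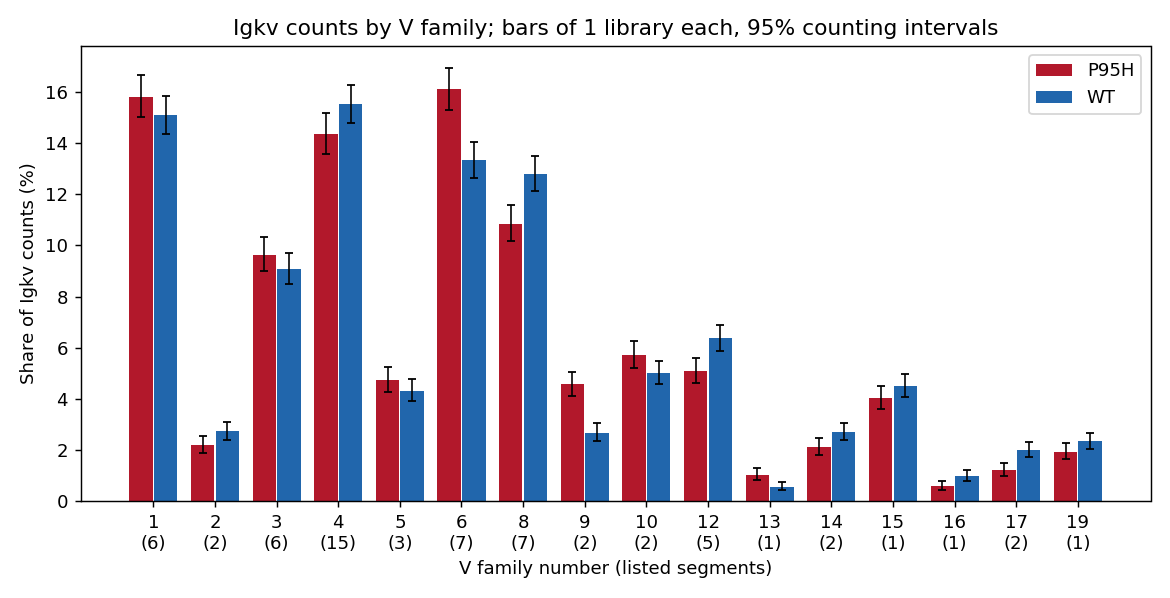
Share of Igkv counts (y axis, %) taken by each of 16 V families (x axis, with the number of listed segments in brackets) in the P95H and WT libraries. Each bar is 1 library and each error bar an exact 95% counting interval. Families 6 and 9 stand higher in P95H marrow, at 16.1% and 4.57%, and family 8 lower, at 10.8%.

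Near copies within a family could share reads, and the treatment of reads with several positions is not stated in the notes used here. Over the V exon, 15 pairs of listed segments were at least 95% identical, and 7 pairs lay on the same side of 0 and 8 on opposite sides. Of the 63 segments, 40 shared at least 1 window of 75 bases, the length of a read, with another Igkv gene of the annotation, and 18 shared over 20% of their windows. Reads were paired, so a shared window need not leave a pair without a unique place. For the segments in such pairs the counts of the 2 members are uncertain, and no reads were examined.

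A pair on opposite sides holds the segment with the most counts of P95H marrow, and both V exons are shown for that reason. Igkv6-15 and Igkv6-13 differ at 14 of 298 bases, which are in capitals.
Igkv6-15 (chr6:70406469-70406766, minus strand): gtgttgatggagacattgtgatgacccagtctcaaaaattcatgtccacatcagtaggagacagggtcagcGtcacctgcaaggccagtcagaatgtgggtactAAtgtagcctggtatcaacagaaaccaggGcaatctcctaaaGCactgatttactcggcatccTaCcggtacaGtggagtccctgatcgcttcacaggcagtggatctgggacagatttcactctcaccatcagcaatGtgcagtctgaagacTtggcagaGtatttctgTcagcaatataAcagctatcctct
Igkv6-13 (chr6:70457501-70457798, minus strand): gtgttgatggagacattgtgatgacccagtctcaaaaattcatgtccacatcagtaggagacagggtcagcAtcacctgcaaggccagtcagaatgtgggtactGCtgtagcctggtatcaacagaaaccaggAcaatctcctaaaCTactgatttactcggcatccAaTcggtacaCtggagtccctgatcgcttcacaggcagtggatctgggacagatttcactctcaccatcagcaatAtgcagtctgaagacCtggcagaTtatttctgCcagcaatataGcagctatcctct
The longest stretch without a difference was 71 bases, under the read length. Igkv6-15 had 662 counts in P95H marrow against 289 in WT marrow, as above, while Igkv6-13 had 35 against 84, a CPM ratio of 0.503 (0.329 to 0.754). Igkv6-23, 96.0% identical to Igkv6-13, lay on the lower side with it.

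A second pair on opposite sides of 0 is in family 9. Igkv9-120 and Igkv9-124 differ at 12 of 298 bases, again in capitals, with 1 identical stretch of 94 bases.
Igkv9-120 (chr6:68050159-68050456, plus strand): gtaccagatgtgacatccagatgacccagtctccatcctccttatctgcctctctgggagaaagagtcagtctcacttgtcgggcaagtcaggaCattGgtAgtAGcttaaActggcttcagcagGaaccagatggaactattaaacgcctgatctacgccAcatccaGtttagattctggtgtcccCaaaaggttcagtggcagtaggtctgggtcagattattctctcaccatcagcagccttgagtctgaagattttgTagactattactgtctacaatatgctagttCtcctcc
Igkv9-124 (chr6:67942074-67942371, minus strand): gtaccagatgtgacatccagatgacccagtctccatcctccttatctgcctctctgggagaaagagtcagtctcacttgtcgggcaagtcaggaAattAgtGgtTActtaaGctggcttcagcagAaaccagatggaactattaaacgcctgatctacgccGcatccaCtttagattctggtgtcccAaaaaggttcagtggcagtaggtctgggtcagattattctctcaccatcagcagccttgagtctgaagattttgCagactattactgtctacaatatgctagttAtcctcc
Igkv9-120 had 284 counts in P95H marrow against 111, and Igkv9-124 had 64 against 129, a CPM ratio of 0.598 (0.436 to 0.814). Their sum, the count of family 9, does not depend on how reads were split between them if each shared read was counted once. It would change if such reads were dropped or counted for both, which is not stated. Another such pair was Igkv4-68 and Igkv4-72, at 95.7% identity, with 73 against 70 counts and 59 against 216. The pairs Igkv1-110 with Igkv1-117 and Igkv12-41 with Igkv12-44 lay on the same side of 0.

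Place in the locus was compared next, because a segment's distance from the joining segments and its orientation set how it is joined. A segment in the same orientation as Igkc is joined by deleting the DNA between, and one in the opposite orientation by inverting it. The 23 listed segments in the same orientation took 41.6% of Igkv counts in P95H marrow (40.5 to 42.7) and 41.4% in WT marrow (40.4 to 42.5), a share ratio of 1.00 (0.958 to 1.05). The other 40 took 58.4% and 58.6%. In the RefSeq order of 162 Igkv genes divided into 4 blocks, the block nearest to the joining segments had 2891 of the Igkv counts in P95H marrow (95% interval of the share 36.9 to 39.1%) and 3240 in WT marrow (35.2 to 37.2%). The second block took 15.6% (14.8 to 16.4) and 17.1% (16.4 to 17.9), the third block 17.8% and 18.0%, and the farthest block 28.6% in both. The second block was thus the only one of the 4 whose share ratio interval, 0.842 to 0.981, did not hold 1. It held 1 segment past 2-fold, Igkv4-57-1, with 0.434% of Igkv counts in P95H marrow and 1.77% in WT marrow. The block was not recomputed without this segment, and an effect of place was not tested.

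Segments past 2-fold in either direction were spread over the whole order. Igkv6-15 stood at place 16 from the joining segments and Igkv8-21 at place 22, while Igkv9-120 and Igkv1-122 stood at places 143 and 145, close to each other with differences of 1.30 and -1.79. The build of the order differs from mm9, which the submitters name, so no distance in bases was used, only the order of the genes, the blocks of that order and the orientation.

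**Figure D4:**
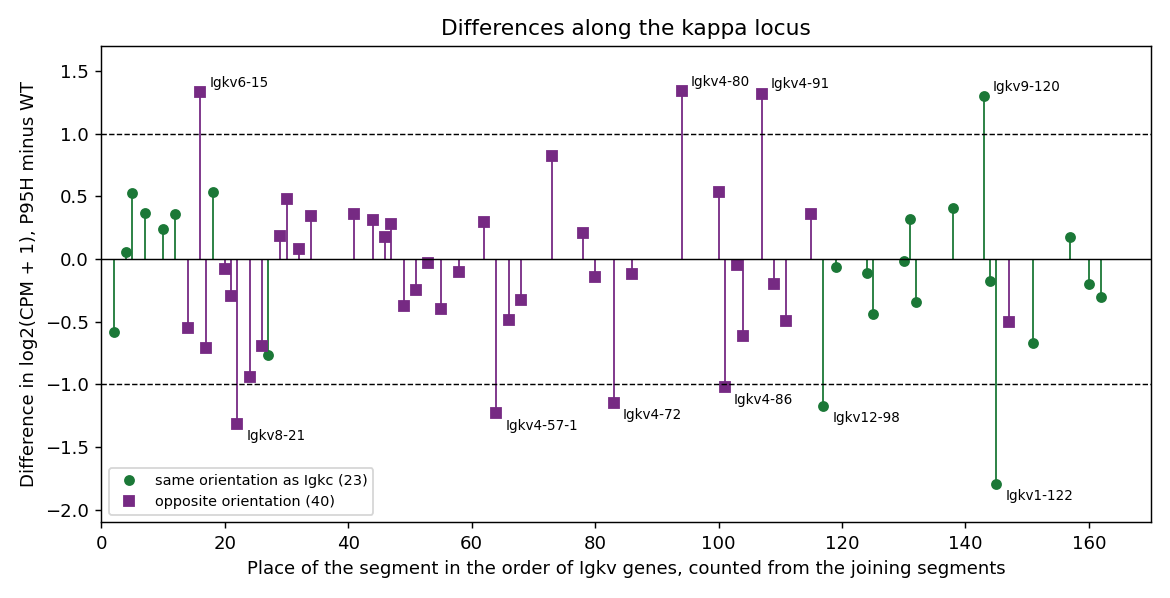
Difference of each segment in log2(CPM + 1), P95H minus WT (y axis), by its place among 162 Igkv genes counted from the joining segments (x axis), with 1 library per genotype. Circles are segments in the same orientation as Igkc and squares those in the opposite one, and dashed lines mark 2-fold. The 4 higher and 6 lower segments lie along the whole order.

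The level of Igkv as a whole was set beside the other parts of the immunoglobulin genes. CPM ratios here and in the gene lists below rest on the authors' scaling and were not recomputed with plain totals. With plain totals the ratio of the Igkv sum was 0.897, so the side of 1 is uncertain for genes near 1. Igkc (Entrez 16071), to which every kappa join is spliced, had 28392 counts in P95H marrow and 36023 in WT marrow, a CPM ratio of 0.951 (0.936 to 0.966). Per 100 Igkc counts there were 26.8 Igkv counts in P95H marrow and 24.8 in WT marrow, a ratio of 1.08 (1.04 to 1.12; intervals of such ratios per 100 counts come from the counting error of the 4 counts on the log scale). Per kb of transcript the level of Igkc was 1344 CPM in P95H marrow and 1414 in WT marrow, and the summed level of the 63 segments 519 and 502. The joining segments, short exons of which each join keeps 1 next to its V segment, were lower. They are 38 to 43 bases long, shorter than a read of 75 bases. Which reads were counted for them thus depends on settings that are not given, and their counts need not measure joined segments. Igkj1 had 48 counts against 112, Igkj2 53 against 78, Igkj3 15 against 54, Igkj4 60 against 136 and Igkj5 57 against 151, and for Igkj2 alone the interval of the CPM ratio, 0.567 to 1.18, held 1. Together they had 1.47 counts per 100 Igkc counts in WT marrow and 0.821 in P95H marrow, a ratio of 0.557 (0.477 to 0.650). All 6 genes of the kappa constant and joining list lay below 0, with 0 past 2-fold and a median of -0.60.

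Lambda light chain genes and heavy chain constant genes lay in both directions. The counts past 2-fold in this and the following gene lists stand beside 2.1% lower and 1.76% higher over all 12860 genes. Of 8 measured lambda genes, 2 were at least 2-fold lower and 0 higher, with a median of -0.48. Iglc2 and Iglc3, near-identical constant genes, had CPM ratios of 0.485 and 0.414, while Iglc1 and Iglv1 had 1.17 (1.09 to 1.26) and 1.25 (1.15 to 1.36). Of 8 measured heavy chain constant genes, 1 was at least 2-fold higher and 2 lower, with a median of 0.34. Ighm, the constant gene of IgM, had 15401 counts against 46482, a CPM ratio of 0.400 (0.392 to 0.407), and Ighd, that of IgD, 245 against 1677. The genes of switched classes lay above 1, with CPM ratios from 1.25 for Ighg2b and 1.28 for Igha to 2.41 for Ighg3, other than Ighe, which had 12 counts against 51.

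Transcripts of B cells were lower in P95H marrow by far more than the Igkv sum under either scaling. Of 14 genes of the B cell receptor and mature B cell list, 12 were at least 2-fold lower and 0 higher, with a median of -1.78 and a summed level of 510 CPM in P95H marrow against 1324 in WT marrow. Cd79a and Cd79b, the signalling chains of the B cell receptor, had CPM ratios of 0.287 (0.266 to 0.309) and 0.293 (0.278 to 0.309). Per 100 counts of Cd79a and Cd79b there were 285 Igkv counts in P95H marrow and 80.8 in WT marrow, a ratio of 3.52 (3.35 to 3.71) that does not depend on the scaling. Of 12 measured genes of pro-B and pre-B cells, which are stages of developing B cells, 8 were at least 2-fold lower and 0 higher, with a median of -1.18. Rag1 had 1604 counts against 5789 and Rag2 69 against 232.

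**Figure D5:**
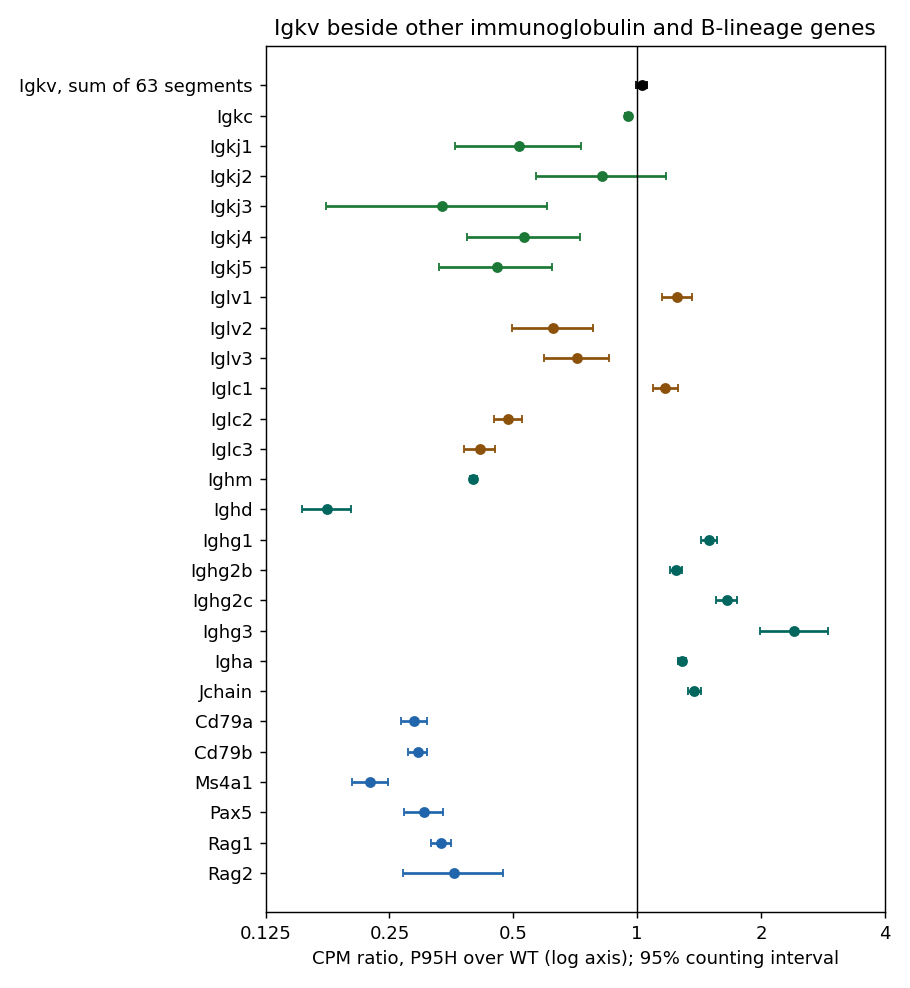
Ratio of CPM, P95H over WT (x axis, log scale), for the sum of 63 Igkv segments and for other immunoglobulin and B lineage genes, with 95% counting intervals and 1 library per genotype. The Igkv sum, at 1.03, and Igkc, at 0.951, lie near 1 in the authors' scaling, whereas Cd79a, Cd79b, Rag1 and Ighm lie between 0.287 and 0.400.

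Genes of plasma cells were mixed. Of 17 measured, 4 were at least 2-fold lower and 0 higher, 8 lay above 0 and 9 below, and the median was -0.13, with a summed level of 985 CPM in P95H marrow against 1103 in WT marrow. Jchain, the joining chain of secreted IgM and IgA, had 5744 counts against 5026, a CPM ratio of 1.38 (1.33 to 1.43), and Xbp1, a transcription factor of secretory cells, 4669 against 4230, a CPM ratio of 1.33 (1.28 to 1.39). Irf4, which acts in both pre-B and plasma cells, had a CPM ratio of 0.320, Sdc1, a surface marker of plasma cells, 0.589 and Prdm1, a factor that sets the plasma cell fate, 0.700. Several of these genes, Xbp1 and Edem1 among them, are also made by other secretory and myeloid cells. The part that plasma cells and B cells each have in the Igkv counts was not tested.

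Of 12 measured factors of kappa promoters and enhancers, 4 were at least 2-fold lower and 0 higher, with a median of -0.56. Irf4 and Pou2af1, both among these, were also counted among the lower genes of plasma cells, so the lists are not separate. Pou2af1, the B cell coactivator that binds with octamer factors at V promoters, had 1139 counts against 3929, a CPM ratio of 0.350 (0.327 to 0.374). The octamer factors themselves, Pou2f2 and Pou2f1, had CPM ratios of 0.686 and 0.823. Spi1, which is also a main factor of myeloid cells, lay on the other side with 1.58 (1.54 to 1.62). Of 10 genes of V(D)J end joining, 1 was at least 2-fold lower, Lig4, the ligase of this repair, with 327 counts against 879, a CPM ratio of 0.449 (0.394 to 0.510), and the median was -0.15. Xrcc4, the partner of Lig4, lay on the other side with 519 counts against 358, a CPM ratio of 1.75 (1.53 to 2.01). Among markers of other marrow cells, 2 of 8 neutrophil genes were at least 2-fold higher (median 0.89), 1 of 9 T cell genes lower (median -0.45) and 1 of 7 measured erythroid genes lower (median -0.95). Over all 12860 genes, 1.76% were higher and 2.1% lower by this size, and 1 gene of so short a list says little. The summed T cell level was 18.8 CPM in P95H marrow against 30.8 in WT marrow. The part of these cells in the Igkv values was not tested.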

How the data were processed

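RNA-seq of 1 P95H and 1 WT marrow library was analysed from the raw read counts and CPM that the authors deposited. Per the labels' protocols, total RNA was depleted of ribosomal RNA and made into stranded libraries sequenced as paired reads of 75 bases. Per the submitters' processing notes, the build was mm9, and featureCounts, edgeR, STAR 2.5.3a, cutadapt, Trim Galore and Picard 1.96 were used, with roles, strand and multi-mapping settings not given in the sources used here. The deposited CPM is a normalised signal, since its columns sum to 1067265 and 934268, and corresponds to effective library sizes of 39696495 and 47880724 reads. The log2 fold change, fold (ratio) and mean columns that the authors deposited were not used.

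Genotype groups came from the labels. No test between genotypes was possible with 1 library each. CPM ratios have exact conditional binomial intervals and shares exact binomial (Clopper-Pearson) intervals, at 95%. Reads carry no molecular identifiers here, and replicate spread is unknown. Differences are log2(CPM + 1), P95H minus WT, called at 1 or more. Segments were named as the top 10 by counts of either library, the 5 highest and 5 lowest differences among those with a CPM of at least 10, those nearest to the limits and single members of a family. The other segments past 2-fold, members of close pairs, and list genes beyond the 4 with the most counts of a list were named after their values were seen. Segments and gene lists were chosen with earlier results of these data known. V exon sequences, orientation and lengths came from GENCODE M21, and gene order from RefSeq (GRCm38.p6), which matched 63 of 63 Entrez numbers. Identity is the share of equal bases in a global alignment (Biopython 1.88, Python 3.11.15, SciPy 1.17.1). Steps were tested on simulated counts. Alternatives are given in the closing section.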

Additional observations from a re-analysis of the deposited data

How the results depend on the processing

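The direction of the Igkv sum, but not the pattern of single segments, depended on scaling. The ratio of the sum was 0.897 when scaled by plain totals, and 0.931 when 26 genes (haemoglobin and the most abundant) were left out of the totals; these moved the median of all genes to -0.18 and -0.13. It was 1.11 over segments with a CPM of at least 1 in both libraries, 1.82 over the 2 segments with a CPM of at least 10, and 0.967 without Igkv6-15. The count of segments at least 2-fold lower, 6, was 1 over segments with a CPM of at least 1 in both libraries and 0 over those with at least 10. It was 10 with a pseudocount of 0.1, 0 with a pseudocount of 5, 12 at a 1.5-fold size and 0 at a 4-fold size. The count of higher segments, 4, was 1 over segments with a CPM of at least 10, 0 with a pseudocount of 5 and 0 at a 4-fold size. The median difference was 0.82 over the 2 segments with a CPM of at least 10. Under plain totals and the totals without abundant genes, 7 segments were lower and 4 higher. The distance between the libraries' shares was 19.0% over segments with a CPM of at least 1 in both libraries and 7.56% by V family. The effective number of segments, P95H minus WT, was -7.90 over all 63 and -3.39 over those with a CPM of at least 1 in both libraries, an alternative chosen after seeing the data. These filters test fewer segments by construction. Of 27 named segments, 1, Igkv8-30, changed sign over the scalings, and 0 segments past 2-fold did. Segments are low, with a median of 76 and 106 counts in the P95H and WT libraries, which limits the precision of each ratio. No paired analysis was possible because each genotype has 1 library.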
